A study of Mus musculus with 18 samples.

Results

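Crypt cells of the mouse small intestine that were weakly positive for a Flattop-Venus reporter were compared with crypt cells that were negative for it. The comparison rests on 4 of the 18 samples of the series, 2 arrays of the low gate and 2 arrays of the negative gate, chosen by their titles, and it covers all 19938 genes with a probe set of their own. All mice were C57Bl6/J, 4 months old and of genotype FltpZV/+, so every cell carried 1 reporter allele, the cells of the negative gate included. Flattop (Cfap126) is a target gene of planar cell polarity signalling, the noncanonical Wnt branch that orients cells within an epithelial sheet. Single cells were sorted by GFP level into a negative, a low and a high gate, and each array held RNA of cells pooled from 2 animals. The 2 arrays of the high gate are given beside the comparison, because they are the other reporter-positive cells. Whether a pool of animals supplied all 3 gates is not given by the labels. The p-values measure only the spread between arrays of the same gate, which may be technical.

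Crypts hold stem cells at their base, marked by Lgr5, and a dividing zone above them. Daughter cells become absorptive enterocytes or enter the secretory lineages, which are Paneth, goblet, tuft and enteroendocrine cells. Enteroendocrine cells are rare hormone-producing cells. Their precursors switch on the transcription factor Neurog3 for a short time, and later factors such as Neurod1, Pax6, Isl1 and Rfx6 go with the making of hormones, of granins that load dense-core granules, and of the proteins that release those granules on stimulation. The study compared 3 crypt populations that differ in reporter expression, under a title that names enteroendocrine and Paneth cells as the fates of primed stem cells.

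Values are log2 intensities after robust multi-array averaging, and a difference of 1 is a doubling on that scale. Changes are low minus negative, and a gene was called at an adjusted p below 0.05. Each change has the standard error of the limma package. Its variance was pooled over all 3 gates, 2 arrays each, and drawn toward the variances of other genes. Scatter between the high arrays therefore enters the error and the p-value of low minus negative. Medians of the arrays lay between 4.54 and 4.74, and the arrays of a gate correlated across genes at 0.981 for the negative gate, 0.975 for the low gate and 0.946 for the high gate. A background level of 4.23 was set at the 95th percentile of genes for odorant, vomeronasal and trace amine receptors, which crypt cells are not known to use. Where a gene was not above it in the dimmer gate, the fold is written as at least the ratio to that level or to the gene's own reading, whichever is higher. In sorted bulk samples, fewer cells of a type and less RNA per cell cannot be told apart.

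Of 19938 genes, 1188 were called (5.96%), 681 higher in the low gate (3.42%) and 507 lower (2.54%). The change was lopsided in size. Called increases included 49 genes that were at least 16-fold higher, and no called decrease reached 16-fold. The median change over all genes was -0.03. Genes of T cells were among those that moved with the gate, 11 of 25 called higher in the low gate, and their part in the other results was not tested. Leaving out the first or the second negative array cut the number of calls to 187 and 197, and leaving out the first or the second low array cut it to 565 and 417. With any 1 of these 4 arrays left out, 147 genes were called each time, 126 of them higher and 21 lower.

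The 4 genes chosen to mark the comparison were all called. Chga, which encodes chromogranin A of dense-core granules, read 6.03 and 6.25 in the negative arrays and 12.26 and 12.85 in the low arrays, an 85.0-fold increase (log2 change 6.41 ± 0.37, adjusted p = 0.00046). Gip, the incretin hormone of K cells, read 7.29 and 6.56 against 13.47 and 13.25, an 86.4-fold increase (6.43 ± 0.28, adjusted p = 0.00021). Rfx6, a transcription factor of endocrine cells in gut and pancreas, was not above background in the negative arrays at 3.72 and 3.55 and read 9.70 and 9.30 in the low arrays, at least 38.6-fold higher (5.87 ± 0.22, adjusted p = 0.00020). Mki67, the antigen Ki-67 of dividing cells, went the other way, from 8.29 and 8.03 to 6.39 and 6.04, a 3.85-fold decrease (-1.95 ± 0.25, adjusted p = 0.0085). None of the 4 genes had arrays that overlapped between the gates, which held for 51.5% of all genes. The calls of Chga, Gip and Rfx6 did not depend on any single array, whereas Mki67 had an adjusted p of 0.092 without the first negative array, 0.063 without the second and 0.062 without the second low array. In the high gate Chga read 8.20 and 7.17, Gip 8.55 and 8.80, and Rfx6 4.04 and 3.72, so that all 3 endocrine markers lay far below the low gate there.

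Flattop itself, the gene behind the reporter, did not separate the gates. Cfap126 read 5.39 and 4.79 in the negative arrays, 5.16 and 6.13 in the low arrays and 5.150 and 4.996 in the high arrays. The change was 0.55 ± 0.36 with an adjusted p of 0.53, and its 95% interval ran from -0.29 to 1.40, so a rise of up to that size lay within the error. The labels do not say which part of the gene the reporter allele replaces, so this probe set does not check the sort.

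The granins and the other granule and vesicle genes listed with them were higher in the low gate as a group. Granins are the acidic proteins that condense with hormones in dense-core granules. The list also holds other kinds of protein, such as Ptprn2, Scgn and Syp. Of 14 genes measured, 13 were called higher and none lower, with a median change of 3.71. Chgb, or secretogranin I, read 7.28 and 6.52 in the negative arrays and 12.69 and 12.82 in the low arrays, a 57.8-fold increase (5.85 ± 0.47, adjusted p = 0.0018). Scg2, secretogranin II, was not above background in the negative arrays at 3.67 and 4.11 and read 9.77 and 9.35 in the low arrays, at least 40.3-fold higher (5.67 ± 0.24, adjusted p = 0.00021). The calcium sensor secretagogin, Scgn, was at least 30.8-fold higher and Scg3 at least 27.4-fold higher. Ptprn2, a membrane protein of the granule also known as phogrin, rose 14.2-fold from 5.84 and 6.23 to 9.88 and 9.84. Counts were 8 without either negative array, 11 without the first low array and 13 without the second. Syp, the vesicle protein synaptophysin, rose 11.2-fold but had adjusted p-values of 0.065 and 0.053 without the first and the second negative array. Against the high gate, 12 of the 14 genes were called higher in the low gate, where 3.89% of all genes were called higher and 1.01% lower.

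Since granin genes moved together, the 250 bases before the transcription start of 3 of them and of Rfx6 are shown, from RefSeq's annotation of GRCm38.p6. A cyclic AMP response element (TGACGTCA), or its core TGACG where the whole element is not there, is in capitals, and each line is written 5′ to 3′ on the gene's strand. Chga lies at chr12:102554691-102554940 on the plus strand, Chgb at chr2:132781392-132781641 on the plus strand, Scg2 at chr1:79440027-79440276 on the minus strand and Rfx6 at chr10:51685268-51685517 on the plus strand.
Chga: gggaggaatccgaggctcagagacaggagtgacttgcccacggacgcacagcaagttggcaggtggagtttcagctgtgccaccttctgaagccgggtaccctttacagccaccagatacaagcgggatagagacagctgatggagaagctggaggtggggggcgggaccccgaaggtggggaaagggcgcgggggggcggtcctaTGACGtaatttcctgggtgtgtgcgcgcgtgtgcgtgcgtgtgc
Chgb: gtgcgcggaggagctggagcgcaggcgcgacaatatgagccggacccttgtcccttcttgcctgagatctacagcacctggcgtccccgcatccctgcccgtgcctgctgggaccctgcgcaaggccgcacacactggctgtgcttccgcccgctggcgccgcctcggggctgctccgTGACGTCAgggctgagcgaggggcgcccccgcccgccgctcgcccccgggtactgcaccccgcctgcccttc
Scg2: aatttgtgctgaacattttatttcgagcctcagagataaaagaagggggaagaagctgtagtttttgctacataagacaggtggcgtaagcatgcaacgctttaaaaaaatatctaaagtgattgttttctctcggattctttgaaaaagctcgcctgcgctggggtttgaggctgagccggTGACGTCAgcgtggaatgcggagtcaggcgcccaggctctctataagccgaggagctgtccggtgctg
Rfx6: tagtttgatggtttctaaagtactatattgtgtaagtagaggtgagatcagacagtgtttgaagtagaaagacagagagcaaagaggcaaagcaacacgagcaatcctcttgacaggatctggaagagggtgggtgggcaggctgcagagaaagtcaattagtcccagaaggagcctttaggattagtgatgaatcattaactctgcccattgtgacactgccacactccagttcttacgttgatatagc

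The full element began 72 bases before the start of Chgb and 68 bases before that of Scg2, and the core began 44 bases before the start of Chga. Searched on both strands in windows of that length, TGACGTCA was found in 508 of 32851 promoters (1.55%) and TGACG, which lies within it, in 17.8%. Among the 13 granin-list genes with a promoter in the table, 3 held TGACGTCA (23.1%), namely Chgb, Scg2 and Syn1. Of these, Syn1 was the granin-list gene not called in limma's fit (log2 change 0.37, adjusted p = 0.52). The element was also counted per gene, with a match at any of the gene's starts. Of measured genes with a promoter, 2.33% held it, as did 21 of the 526 called higher (3.99%). E-boxes (CANNTG), the letters that factors of the Neurod1 type can bind, stood 191, 179 and 116 bases before the start of Chga, 176 before Chgb and 173 before Scg2, but 66.2% of all promoters held one. The Rfx6 window held neither TGACG, nor CANNTG, nor GTTNCC, one arm of the X-box that RFX factors can bind, which was present in 39.4% of all promoters. A match is a description of letters, not of a bound site.

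Hormone precursors had the largest median change of all lists. Of 17 precursors measured, 12 were called higher and none lower, with a median change of 5.37. They covered hormones of several endocrine subtypes. Nts, neurotensin of N cells, was not above background in the negative arrays at 3.50 and 4.01, read 11.47 and 10.96 in the low arrays and was at least 127-fold higher (7.46 ± 0.28, adjusted p = 0.00020). Pyy, peptide YY of L cells, rose 106-fold from 5.14 and 4.85 to 11.79 and 11.66. Cck, cholecystokinin of I cells, read 6.50 and 3.97 in the negative arrays and 12.09 and 11.83 in the low arrays, also a 106-fold rise (6.72 ± 0.74, adjusted p = 0.0049). Its negative arrays differed from each other by more than those of any other hormone named here, and the low arrays lay above both. Gcg, the proglucagon gene that yields GLP-1, rose 83.2-fold from 6.15 and 6.43 to 12.65 and 12.70. Sst, somatostatin of D cells, rose 52.8-fold from 6.74 and 6.26 to 12.70 and 11.74. Sct, secretin of S cells, rose 27.0-fold, and Tac1, the precursor of substance P, rose 41.3-fold. The precursors that were not called were Insl5, Nmb, Cartpt, Penk and Npy.

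Ghrelin and gastrin were the called hormones for which low minus high was not called. Ghrl, the hunger hormone of X cells, read 6.18 and 6.51 in the negative arrays, 12.731 and 12.002 in the low arrays and 11.48 and 9.38 in the high arrays. It was 65.1-fold higher in the low than in the negative gate (6.02 ± 0.63, adjusted p = 0.0043), and its adjusted p without the first negative array was 0.054. Low minus high was 1.94 for Ghrl and was not called. Gast, gastrin, read 4.99 and 4.88, then 11.89 and 9.11, then 12.76 and 11.01 in the negative, low and high arrays. Its rise of 47.3-fold over the negative gate had an adjusted p of 0.018, and of 0.12 without either negative array. Of the 17 precursors, 10 were called higher in the low than in the high gate.

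Enzymes that turn prohormones into hormones were split. Pcsk1, the prohormone convertase that makes the first cuts, rose 33.9-fold from 4.73 and 4.94 to 9.70 and 10.13 (5.08 ± 0.26, adjusted p = 0.00039). Cpe, carboxypeptidase E, which trims the cut ends, read 4.09 and 4.04 in the negative arrays, 11.34 and 11.06 in the low arrays and 7.42 and 4.87 in the high arrays, and it was at least 125-fold higher than in the negative gate (7.13 ± 0.72, adjusted p = 0.0038). Pam, which amidates peptide ends, was at least 14.2-fold higher. Pcsk5, another convertase, fell by 2.22 on the log2 scale with an adjusted p of 0.016, which was 0.13 and 0.090 without the first and second negative array and 0.074 without the second low array. In all, 3 of 10 such genes were called higher and 1 lower.

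Enterochromaffin cells make serotonin, and the genes of that pathway also separated the gates. Tph1, the rate-limiting enzyme of serotonin synthesis outside the brain, read 3.81 and 3.94 in the negative arrays and 10.09 and 10.31 in the low arrays, at least 62.7-fold higher (6.32 ± 0.44, adjusted p = 0.0010). Trpa1, the irritant-sensing channel of these cells, read 3.58 and 3.73 against 8.33 and 9.21, at least 23.2-fold higher (5.11 ± 0.30, adjusted p = 0.00046), and it stayed below background in the high arrays at 3.79 and 3.78. Ddc, which makes the final step to serotonin, rose 4.78-fold, and Slc18a1, which loads it into vesicles, rose 16.6-fold; without the first negative array their adjusted p-values were 0.061 and 0.056, and without the second that of Slc18a1 was 0.053. The member called lower was Slc6a4, the transporter that takes serotonin back up and is made by enterocytes. It read 7.89 and 8.01 in the negative arrays and 6.19 and 5.88 in the low arrays, a 3.76-fold decrease (-1.91 ± 0.19, adjusted p = 0.0039), with an adjusted p of 0.052 without the second negative array. Maoa, which breaks serotonin down, changed by -1.92 but was not called (adjusted p = 0.056). Of 14 genes on the list, 7 were called higher and 1 lower, and 3 others were past an unadjusted p of 0.05 downward.

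**Figure D1:**
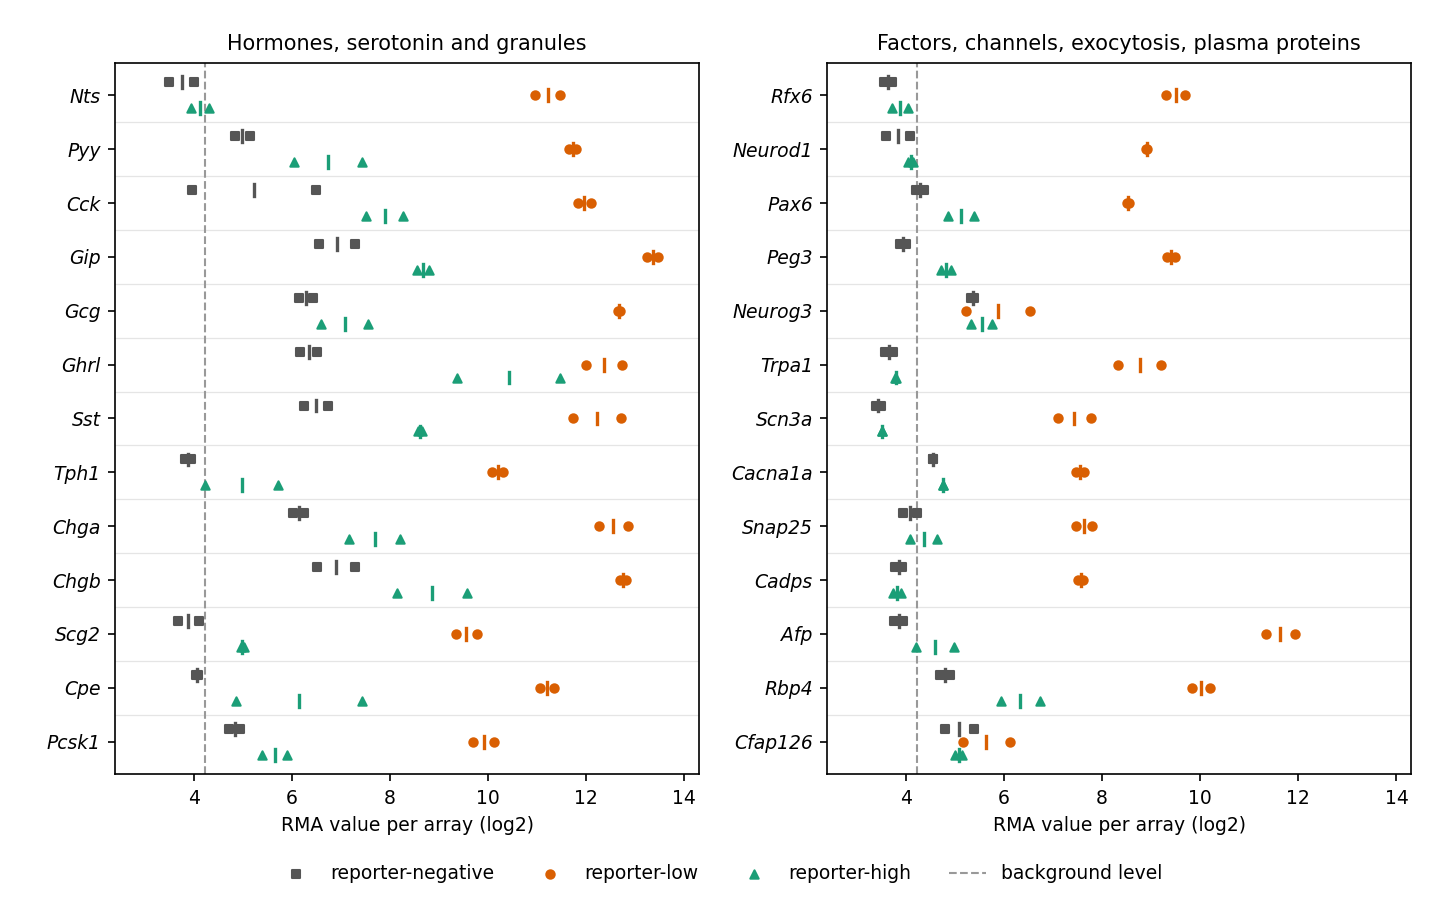
Log2 intensities of hormone, granule and processing genes (left) and of transcription factors, channels, release genes, plasma protein genes and Cfap126 (right) in each of the 6 arrays. Squares are the negative, circles the low and triangles the high arrays, vertical bars mark gate means, and the dashed line marks the background level of 4.23. The low arrays stand to the right of both other gates for most rows, while Neurog3 and Cfap126 overlap across gates.

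Of 29 transcription factors of the enteroendocrine lineage, 13 were called higher and none lower, with a median change of 0.95. They included factors that act after Neurog3. Neurod1, a direct target of Neurog3, read 3.60 and 4.09 in the negative arrays and 8.92 and 8.90 in the low arrays, at least 25.6-fold higher (5.06 ± 0.22, adjusted p = 0.00021). Pax6 rose 18.9-fold from 4.37 and 4.21 to 8.55 and 8.50, and Isl1 was at least 21.2-fold higher. Peg3, an imprinted zinc finger gene, was at least 36.3-fold higher, reading 4.01 and 3.87 against 9.49 and 9.33. Neurog3 itself, the factor that starts the lineage, read 5.39 and 5.33 in the negative arrays, 6.54 and 5.23 in the low arrays and 5.76 and 5.33 in the high arrays. Its change of 0.52 ± 0.41 was not called (adjusted p = 0.64, 95% interval -0.45 to 1.5), and it was -0.13 without the first low array. Insm1, another early factor, rose 3.11-fold with an adjusted p of 0.012, but the call was lost without either negative array or without the first low array, at 0.089, 0.11 and 0.060. The list gave between 9 and 11 calls when 1 low or negative array was left out, and 13 of its members were called higher in the low than in the high gate.

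Genes for electrical excitability and for granule release were called in the same direction. Of 32 ion channel genes of excitable cells, 11 were called higher and none lower, although the median change was 0.23. Scn3a, a voltage-gated sodium channel, read 3.48 and 3.40 in the negative arrays and 7.09 and 7.78 in the low arrays, at least 9.23-fold higher. Cacna1a, the pore of P/Q-type calcium channels, rose 7.95-fold from 4.56 and 4.55 to 7.62 and 7.47. Cacna2d1, an auxiliary calcium channel subunit, was at least 5.96-fold higher. Leaving out 1 array gave 6 to 9 calls on this list; it gave 6 without the first negative, the second negative or the first low array. Of 31 regulated exocytosis genes, 11 were called higher and none lower, with a median of 0.79. Snap25, a membrane fusion protein, read 3.94 and 4.22 against 7.47 and 7.80, at least 10.6-fold higher, and Cadps, which primes granules for release, read 3.78 and 3.93 against 7.51 and 7.61, at least 10.1-fold higher. Cplx2, a complexin that acts on the fusion machinery, and Rab3c, a vesicle GTPase, were at least 9.70-fold and 8.48-fold higher. Adjusted p-values of these 7 genes ranged from 0.00039 to 0.0011, and each was called whichever array was left out. Exocytosis calls numbered 5 and 6 without the first and second negative array.

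Receptors with which endocrine cells sense nutrients gave few calls. Of 19 measured, 4 were called higher and none lower, with a median change of 0.39. They were 3 receptors for free fatty acids and 1 for lipid amides. Ffar1 was at least 3.07-fold higher, Ffar2 4.08-fold, Ffar3 at least 2.34-fold and Gpr119 at least 3.93-fold, with adjusted p-values of 0.0047, 0.037, 0.042 and 0.0064. Without the first negative array 1 of the 4 calls was left, and without the second none was; the adjusted p of Ffar1 was then 0.056 and 0.055, and that of Gpr119 was 0.057 without the second negative array.

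The gene with the largest rise of all was not a hormone gene. Afp, alpha-fetoprotein, a plasma protein of fetal liver, read 3.77 and 3.95 in the negative arrays and 11.34 and 11.93 in the low arrays, at least 170-fold higher (7.78 ± 0.32, adjusted p = 0.00021). In the high arrays it read 4.20 and 4.99. Rbp4, the plasma carrier of retinol, read 4.70 and 4.90 in the negative arrays and 10.19 and 9.82 in the low arrays, a 36.9-fold rise (5.20 ± 0.30, adjusted p = 0.00046). Alb, albumin, rose 6.46-fold from 3.95 and 4.34 to 7.09 and 6.58, and Trf, transferrin, rose 5.47-fold from 4.51 and 4.36 to 6.79 and 6.98. These 4 genes were called whichever array was left out. Of 23 liver-type plasma protein genes, 6 were called higher and none lower, and the list's median change was 0.27. Of 28 imprinted genes, 4 were called higher (Peg3, Cdkn1c, Rasgrf1 and Airn) and 1 lower (Slc22a18), with a median of 0.06. Of these 5, only Peg3 was called in every fit that left out 1 array.

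Paneth cell genes were also higher in the low than in the negative gate, but none was called higher in the low than in the high gate. Paneth cells sit at the crypt base and secrete antimicrobial proteins. Of 20 genes measured, 11 were called higher than in the negative gate and 1 lower, with a median change of 1.56. Pnliprp2, a pancreatic-type lipase, read 6.06 and 5.28 in the negative arrays, 11.002 and 11.676 in the low arrays and 12.30 and 12.31 in the high arrays, a 50.9-fold rise over the negative gate (5.67 ± 0.33, adjusted p = 0.00046). Ang4, an antimicrobial ribonuclease, read 8.79 and 9.09, then 12.69 and 12.97, then 13.22 and 13.08, a 14.8-fold rise. Itln1, the lectin intelectin, rose 7.29-fold from 9.73 and 9.78 to 12.57 and 12.67. Lyz1, the Paneth lysozyme, rose 3.71-fold from 11.57 and 11.08 to 13.22 and 13.21 (1.89 ± 0.22, adjusted p = 0.0061), with an adjusted p of 0.056 without the second negative array. Habp2, a serum protease, rose 17.0-fold over the negative gate and was still 1.73 below the high gate on the log2 scale, at 9.88 and 10.16 against 11.89 and 11.60. Against the high gate, none of the 20 genes was called higher in the low gate and 3 were called lower. The gene called lower than in the negative gate was Fzd5, a Wnt receptor (2.59-fold, adjusted p = 0.038). The 11 calls became 8 and 7 without the first and second negative array and 7 without the second low array.

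Factors of the early secretory lineage did not move as one. Of 16 genes, 4 were called higher and none lower. Hepacam2, an adhesion protein of secretory cells, rose 5.74-fold from 7.35 and 6.85 to 9.84 and 9.40 (2.52 ± 0.25, adjusted p = 0.0037). Bhlha15, or Mist1, which builds the secretory apparatus, rose 4.06-fold from 5.71 and 5.66 to 7.47 and 7.95, and it was higher again in the high arrays at 9.43 and 9.81. Kit, a receptor of Paneth and goblet-type cells and of mast cells, rose 4.21-fold from 6.43 and 6.11 to 8.38 and 8.31. The calls of Bhlha15 and Kit had adjusted p-values of 0.067 and 0.053 without the second negative array, and Bhlha15 had 0.069 without the first. Atoh1, the factor that commits cells to the secretory fate, read 8.31 and 8.54 in the negative arrays, 7.005 and 7.998 in the low arrays and 10.38 and 10.80 in the high arrays. Its change was -0.93 ± 0.34 (adjusted p = 0.21, 95% interval -1.74 to -0.11), which was not called, while low minus high was -3.09 and was called (adjusted p = 0.0051).

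The other secretory lineages gave no common change. Of 20 goblet cell genes, 1 was called higher and 3 lower. Clca1, a protein of intestinal mucus, fell by 2.04 on the log2 scale from 11.41 and 11.23 to 9.13 and 9.41 (adjusted p = 0.0061), and its adjusted p was 0.072 and 0.055 without the first and second negative array. Muc2, the main mucin, changed by -0.17 (adjusted p = 0.87). Of 24 tuft cell genes, 2 were called higher, Hpgds and Ptpn6, where 3.42% of all genes were. Dclk1, the usual tuft marker, changed by -0.37 (adjusted p = 0.70). Neither tuft call was present without either negative array or without the second low array. Of 28 genes of the unfolded protein response, which relieves the secretory pathway, 3 were called higher (Dnajb9, Herpud1 and Ern1), each by 2.35-fold or less. None of these 3 was called without the first or the second negative array.

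**Figure D2:**
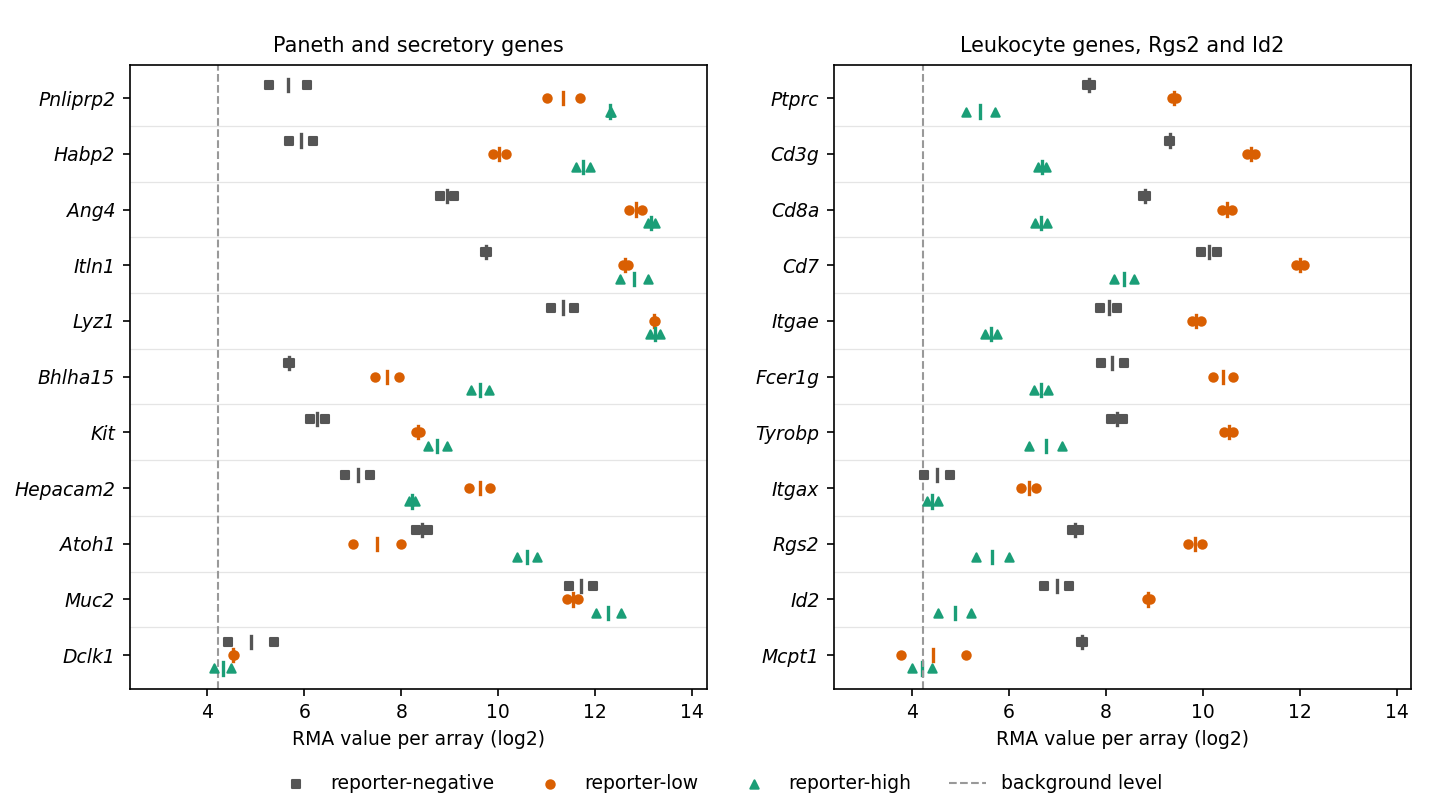
Log2 intensities in each of the 6 arrays of Paneth, secretory, goblet and tuft genes (left) and of leukocyte genes, Rgs2 and Id2 (right). Squares are the negative, circles the low and triangles the high arrays, vertical bars mark gate means and the dashed line marks the background level of 4.23. Pnliprp2, Habp2 and Ang4 are low only in the negative arrays, whereas Ptprc, Cd3g, Itgae and Id2 are highest in the low arrays and lowest in the high arrays.

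Genes of cell division were lower in the low gate. Of 44 mitotic genes, 33 were called lower and none higher, with a median change of -1.77 and a range from -2.54 to -0.13. In the high gate 28 of the 44 were called lower than in the negative gate. Low minus high was called higher for 2 and lower for 1. Kif11, the motor that separates spindle poles, read 7.20 and 6.88 in the negative arrays and 4.78 and 4.57 in the low arrays, a 5.16-fold decrease (-2.37 ± 0.20, adjusted p = 0.0024). Cdk1, the kinase that drives entry into mitosis, fell by 2.15 on the log2 scale from 6.91 and 7.20 to 5.05 and 4.76, and read 5.89 and 6.01 in the high arrays. Kif15, a second spindle motor, fell by 2.05 from 6.61 and 6.92 to 4.71 and 4.73, and Ncapd2, a condensin subunit that compacts chromosomes, fell by 1.97 from 7.86 and 7.69 to 5.90 and 5.70. These 4 genes were called whichever array was left out, but the list was not. Its 33 calls became 7 and 8 without the first and second negative array, 22 without the first low array and 14 without the second. For 43 of the 44 genes both low arrays lay below both negative arrays, where 28.5% of all genes did.

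**Figure D3:**
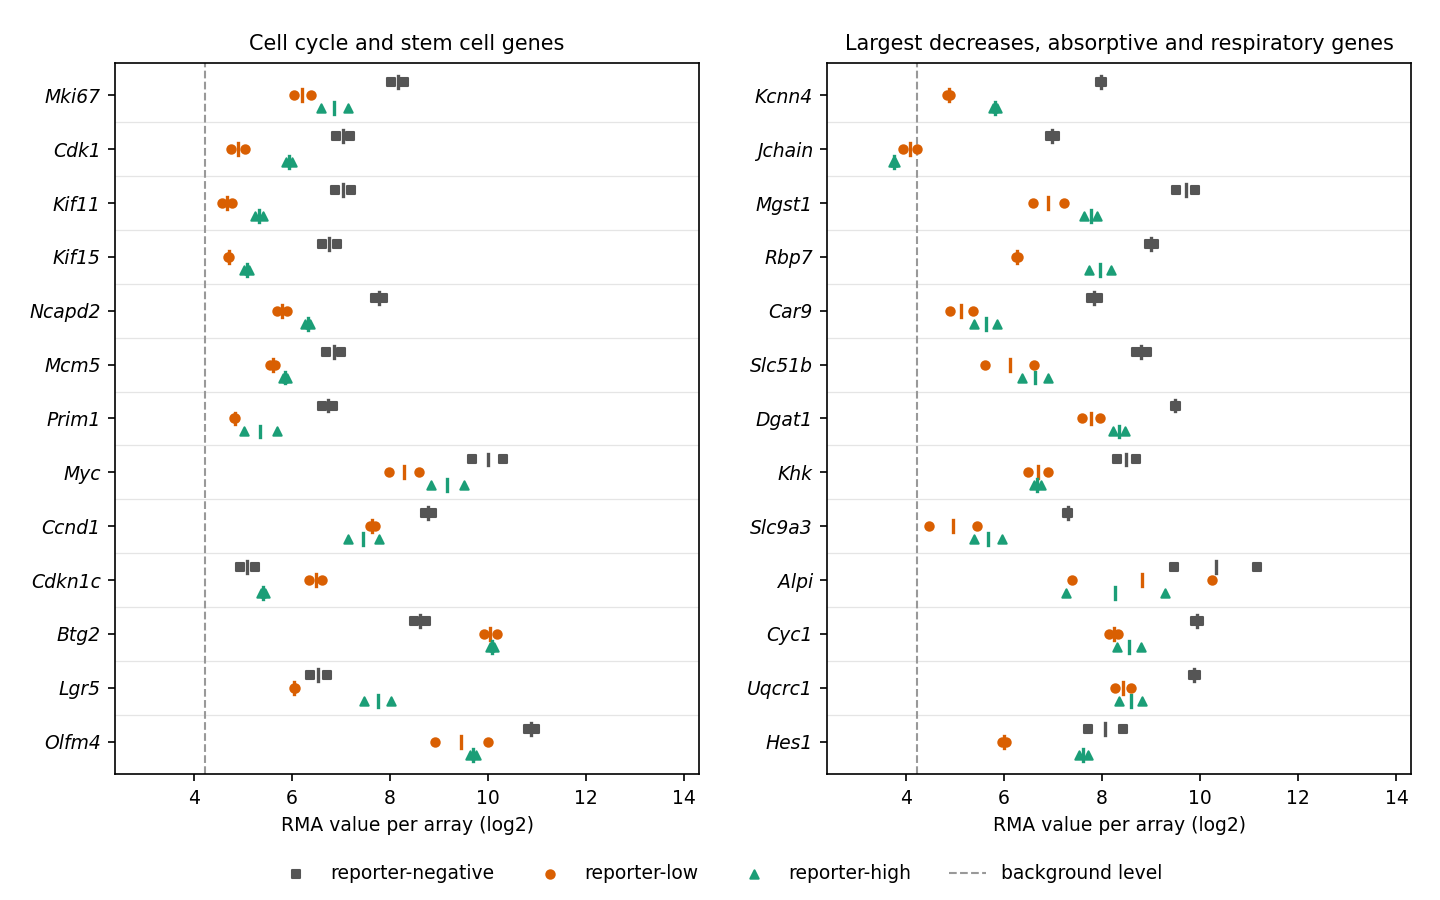
Log2 intensities in each of the 6 arrays of cell cycle, stem cell and growth genes (left) and of the called decreases, absorptive and respiratory genes (right). Squares are the negative, circles the low and triangles the high arrays, vertical bars mark gate means and the dashed line marks the background level of 4.23. The low arrays stand to the left of the negative arrays for the mitotic genes, while the arrays of Alpi overlap between these gates.

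DNA replication genes had a smaller median change. Of 45, 12 were called lower and none higher, with a median change of -0.95. The high gate had 8 of the 45 called lower than in the negative gate and 1 higher. Prim1, a primase subunit, read 6.85 and 6.61 against 4.84 and 4.83 (-1.89 ± 0.26, adjusted p = 0.010), and Mcm5 and Mcm6, subunits of the replicative helicase, changed by -1.24 and -1.28 with adjusted p-values of 0.016 and 0.014. No replication gene was called without the first or the second negative array, 3 were called without the first low array and 1 without the second. Cell cycle inhibitors were called in both directions, Cdkn1c higher and Cdkn2b lower. Cdkn1c, the inhibitor p57, read 4.94 and 5.25 in the negative arrays and 6.35 and 6.62 in the low arrays, and Btg2, an antiproliferative factor, read 8.49 and 8.74 against 9.92 and 10.18. Their rises were 2.62-fold and 2.69-fold, with adjusted p-values of 0.013 and 0.011 that became 0.12 and 0.11 without the first negative array, 0.072 and 0.069 without the second, and 0.093 and 0.078 without the second low array. Cyclin D1 (Ccnd1), Cdkn2b and E2f2 were called lower by 2.12-fold to 2.61-fold, which made 2 higher and 3 lower among 26 genes of that list. Their calls were absent when either negative array or the second low array was left out.

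Growth metabolism moved downward in part. Of 29 nuclear genes of the respiratory chain, 8 were called lower and none higher, with a median of -0.89. Both low arrays lay below both negative arrays for all 29, where 28.5% of all genes did. Cyc1, cytochrome c1 of complex III, read 9.98 and 9.90 in the negative arrays and 8.14 and 8.33 in the low arrays (-1.70 ± 0.22, adjusted p = 0.0085), with adjusted p-values of 0.092, 0.075 and 0.054 without the first negative, the second negative and the first low array. None of the 8 was called without either negative array, and 1 was called without either low array. Cyc1 read 8.79 and 8.31 in the high arrays, which overlapped the low arrays. High minus negative was called lower for 8 of the 29 genes. Among 34 ribosome biogenesis genes, Nop2 and Pes1 were called lower, with a list median of -0.52. Over all genes, 2.54% were called lower and 5.96% either way, so this count was near the share of all genes called. Of 21 one-carbon and nucleotide synthesis genes, Shmt1, Mthfd1 and Atic were called lower and Ppat, the first enzyme of purine synthesis, higher (2.00-fold, adjusted p = 0.041); none of these 6 calls was present without either negative array.

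Stem cell markers gave few calls, in both directions. Of 28 measured, 2 were called higher and 4 lower, with a median of -0.38. Lgr5 read 6.37 and 6.71 in the negative arrays, 6.06 and 6.04 in the low arrays and 7.47 and 8.03 in the high arrays. It was not called against the negative gate (-0.49 ± 0.25, adjusted p = 0.38, 95% interval -1.07 to 0.10), and it was 1.70 below the high gate (adjusted p = 0.013). Olfm4, a marker of crypt base cells, read 10.81 and 10.95 against 8.913 and 10.002, a change of -1.42 with an adjusted p of 0.065. Ascl2, a Wnt-driven stem cell factor, changed by -0.79 (adjusted p = 0.17), and Hopx and Bmi1, which have been used to mark reserve stem cells, by 1.09 (adjusted p = 0.13) and 0.51 (adjusted p = 0.47). The call that did not depend on a single array was Rnf32, which read 4.59 and 4.46 in the negative arrays and 6.39 and 6.58 in the low arrays, a 3.90-fold rise (1.96 ± 0.19, adjusted p = 0.0032). Among the markers called lower, Slc14a1 fell by 1.91 and Slc12a2 by 1.27 on the log2 scale. None of the 4 decreases was called without either negative array or without the second low array. Cd44, the other rise, was called without the second low array but with no other low or negative array left out.

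The signalling lists were mixed. Of 36 planar cell polarity genes, Flattop included, none was called in limma's fit, 2 were past an unadjusted p of 0.05 upward and 1 downward, and changes ran from -0.78 to 0.73 with a median of 0.03. Celsr1, a core polarity cadherin, changed by 0.18 (adjusted p = 0.82). Vangl2, another core component, changed by 0.03 (adjusted p = 0.97, -0.05 with arrays centred), and Wnt5a, a ligand of the pathway, by 0.06 (adjusted p = 0.96, -0.02 with arrays centred and -0.05 without the first negative array). Both of these genes were not above background in either gate. Of 20 canonical Wnt target and feedback genes, 3 were called lower (Myc, Ccnd1 and Rnf43) and 1 higher (Cd44), while Axin2 changed by -0.48 (adjusted p = 0.29). Myc, a growth-promoting factor, read 9.68 and 10.30 against 7.97 and 8.60 (-1.70 ± 0.35, adjusted p = 0.037, between 0.081 and 0.22 with 1 low or negative array left out). Ccnd1 and Rnf43 were likewise not called with any of these arrays left out.

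Of 22 Notch pathway genes, 2 were called lower and none higher, with a median of 0.06, where 2.54% of all genes were called lower. Hes1, the Notch target that represses secretory fates, read 7.70 and 8.42 in the negative arrays, 5.97 and 6.04 in the low arrays and 7.53 and 7.71 in the high arrays, a 4.16-fold decrease (-2.06 ± 0.26, adjusted p = 0.0080). Hes1 was also 1.61 lower than in the high gate (adjusted p = 0.021), whose arrays overlapped the negative arrays. Its adjusted p was 0.053 without the second negative array and 0.051 without the second low array. Nrarp, a feedback inhibitor of Notch, fell by 1.10 (adjusted p = 0.038), and it was not called with any low or negative array left out. The ligand Dll1 changed by -0.76 (adjusted p = 0.082).

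**Figure D4:**
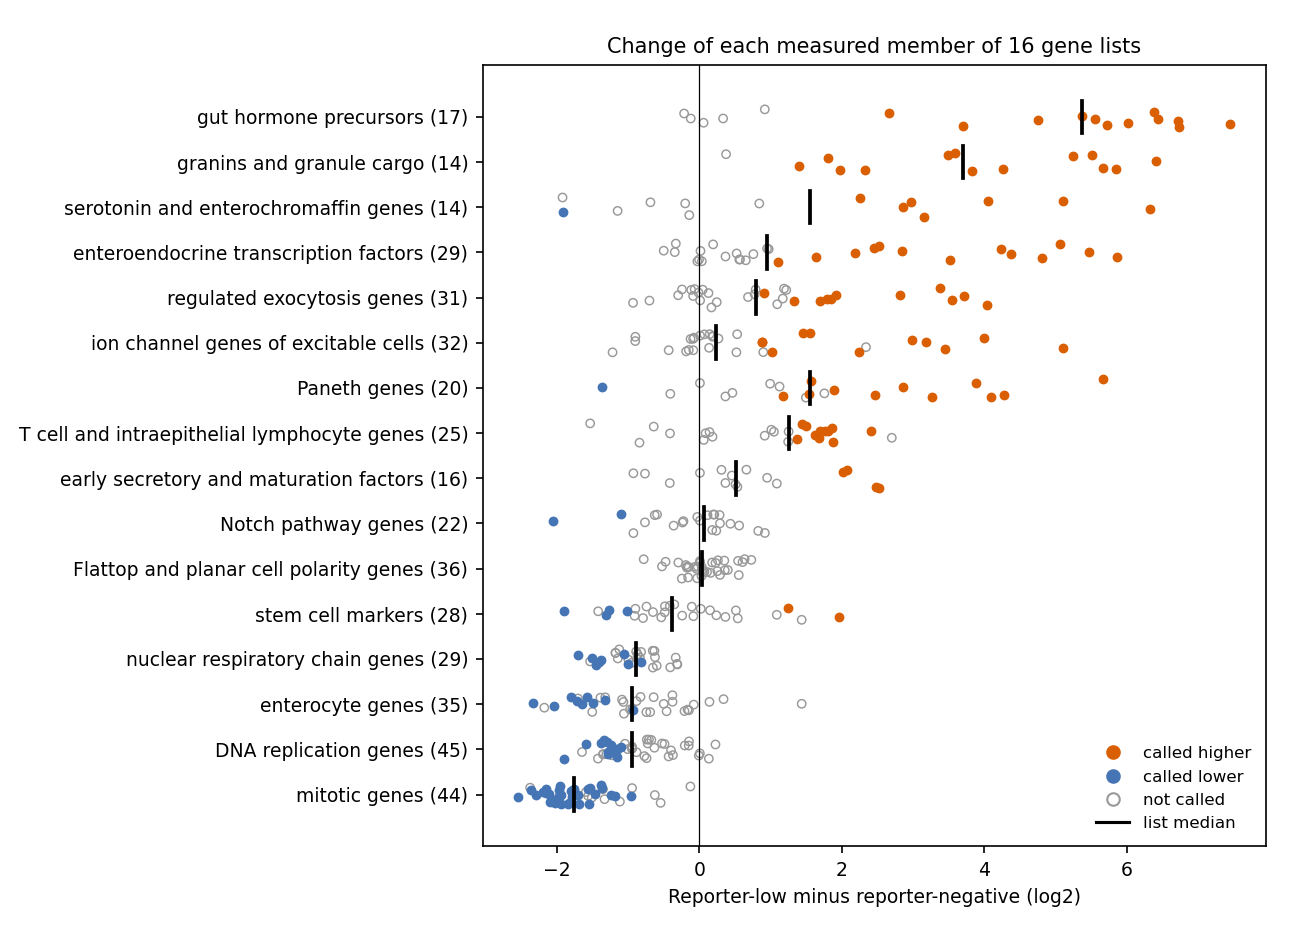
Log2 changes, low minus negative, of the members of 16 gene lists. Each point is 1 gene and the longer mark is the list's median, from 5.37 for hormone precursors to -1.77 for mitotic genes, and the planar cell polarity list lies around 0.03.

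Where a list had no call in 1 direction, limma's unadjusted p was below 0.05 in that direction for few members. It was so for no granin, hormone precursor, plasma protein gene, mitotic gene, DNA replication gene or respiratory chain gene. It was so for 1 enteroendocrine transcription factor, 1 exocytosis gene, 3 ion channel genes, 2 nutrient-sensing receptors, 2 early secretory factors and 3 tuft cell genes, all lower, as well as 2 T cell genes, also lower, and for 2 Notch pathway genes and 1 enterocyte gene, which were higher.

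The decreases that did not depend on a single array were led by a potassium channel. Kcnn4, the calcium-activated channel KCa3.1, read 7.958 and 7.999 in the negative arrays, 4.91 and 4.85 in the low arrays and 5.77 and 5.86 in the high arrays, an 8.59-fold decrease (-3.10 ± 0.17, adjusted p = 0.00046). Mgst1, a microsomal glutathione transferase, fell by 2.80 from 9.52 and 9.88 to 7.22 and 6.58. Rbp7, a retinol-binding protein, fell by 2.74 from 8.95 and 9.05 to 6.29 and 6.24. Car9, a carbonic anhydrase of the cell surface, fell by 2.72 from 7.91 and 7.77 to 5.36 and 4.89. Their adjusted p-values were 0.0034, 0.0015 and 0.0031. Reg3a, an antimicrobial lectin, had the largest decrease of a named gene, from 7.49 and 6.59 to 4.27 and 3.23 (-3.29 ± 0.49, adjusted p = 0.014), but its adjusted p was 0.11 and 0.057 without the first and second negative array and 0.074 without the second low array.

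Absorptive genes were called in 1 direction. Of 35 enterocyte genes, 9 were called lower and none higher, with a median of -0.94. In the high gate 14 of the 35 were called lower than in the negative gate. Dgat1, which makes triglycerides, read 9.50 and 9.48 in the negative arrays and 7.96 and 7.58 in the low arrays (-1.72 ± 0.21, adjusted p = 0.0066). Khk, the fructose kinase, Slc9a3, the apical sodium-proton exchanger, and Lct, lactase, changed by -1.80, -2.34 and -1.65 with adjusted p-values of 0.0082, 0.013 and 0.019. Alpi, the brush-border alkaline phosphatase, read 11.15 and 9.47 against 10.24 and 7.38, so the arrays of a gate differed by more than the gates did (-1.50 ± 1.07, adjusted p = 0.58). High minus negative was called lower for 9 of 33 detoxification genes. Of these 33, 7 were called lower in the low gate and 1 higher, with a median of -1.11. The exception was Gstt1, a theta-class glutathione transferase, which rose 8.60-fold from 6.07 and 5.39 to 8.66 and 9.01 (3.10 ± 0.30, adjusted p = 0.0032), whichever array was left out. Without the first or the second negative array no enterocyte gene and 1 detoxification gene was called lower. Without the first and the second low array the enterocyte calls numbered 8 and 3.

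Tight junction genes also contained opposite calls. Cldn4, a sealing claudin, rose 6.53-fold from 5.88 and 6.36 to 8.66 and 8.99 (2.71 ± 0.26, adjusted p = 0.0032), and was called whichever array was left out. Cldn15, a claudin that forms sodium pores, fell by 1.53 from 10.25 and 10.26 to 8.63 and 8.83 (adjusted p = 0.0077), with adjusted p-values between 0.052 and 0.085 without either negative array or the first low array. Of 22 intestinal identity factors, 3 were called lower (Nr5a2, Klf5 and Ehf) and 1 higher (Prdm1), none of them without either negative array. Nr5a2, which promotes crypt cell renewal, fell by 2.42 with an adjusted p of 0.012, and of 0.10 and 0.059 without the first and second negative array. Of 28 immediate early and heat shock genes, 6 were called higher and 2 lower, and the largest of these rises was that of Nr4a2, 4.18-fold (adjusted p = 0.0090, 0.057 without the first negative array and 0.063 without the second low array).

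Genes of leukocytes moved with the gates. Of 25 genes of T cells and intraepithelial lymphocytes, 11 were called higher in the low gate and none lower, with a median of 1.25, and 18 were called higher than in the high gate. The log2 values of the 25 genes summed to 185.1 and 192.3 in the negative arrays, 210.2 and 215.6 in the low arrays and 149.6 and 157.6 in the high arrays, and 23 to 25 of them were above background in every array. Ptprc, the leukocyte antigen CD45, read 7.69 and 7.61, then 9.46 and 9.37, then 5.11 and 5.72 (low minus negative 1.77 ± 0.24, adjusted p = 0.0096). Cd3g, a chain of the T cell receptor complex, read 9.32 in both negative arrays, 10.92 and 11.08 in the low arrays and 6.76 and 6.61 in the high arrays (1.68 ± 0.18, adjusted p = 0.0046). Not every member followed. Thy1, a surface protein of T cells and other cells, read 7.998 and 8.213 in the negative arrays and 6.07 and 7.07 in the low arrays (-1.53, adjusted p = 0.056, and 0.040 without the second low array), and Cd5, a co-receptor of T cells, changed by -0.84 (adjusted p = 0.0998). Without the first negative array none of the 11 genes was called, and without the second 1 was; leaving out the first and the second low array gave 6 and 4 calls. The adjusted p was 0.089, 0.091, 0.057 and 0.060 for Ptprc over these 4 fits, and 0.060 and 0.055 for Cd3g without the first and second negative array.

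Lists of other non-epithelial cells had smaller shifts in their sums, in mixed directions, though some of their genes changed by more than Ptprc or Cd3g. Of 24 myeloid and mast cell genes, 8 were called higher, among them the signalling adaptors Fcer1g (4.83-fold) and Tyrobp (4.95-fold), and 2 lower, the mast cell proteases Mcpt1 and Mcpt2. The other increases were Itgax, Lyz2, C1qa, C1qb, Fcgr3 and Kit. Cd68, Adgre1, Itgam, Ccr2, Cx3cr1, Csf1r and Cd14 were not called, with changes from -0.66 to 0.48. The mast cell genes Cpa3, Tpsb2, Cma1, Fcer1a and Ms4a2 were not called either, with changes from -0.33 to 0.17. They were not above background in the low or the negative gate. Without the first negative array the adjusted p was 0.057 for Fcer1g and 0.070 for Tyrobp, and without the second it was 0.052 for Tyrobp. Mcpt1 read 7.49 and 7.53 in the negative arrays and 5.11 and 3.79 in the low arrays (-3.06 ± 0.41, adjusted p = 0.0096, 0.089 and 0.085 without the first and second negative array). The list summed to 120.0 and 121.0 in the negative arrays and 128.9 and 129.2 in the low arrays. Of 17 B and plasma cell genes, 3 were called lower and 1 higher, and the list summed to 88.0 and 89.9 against 79.9 and 81.3. Jchain, the joining chain of secreted antibodies, read 6.93 and 7.04 in the negative arrays and was not above background in the low arrays at 3.93 and 4.22, at least 6.76-fold lower (-2.91 ± 0.19, adjusted p = 0.00073). It was the only gene on that list called whichever array was left out. Stromal and endothelial genes summed to 92.8 and 92.3 against 92.6 and 95.2, with only Vim called (5.46-fold, adjusted p = 0.035, and not called with any low or negative array left out). Enteric neuron and glia genes summed to 80.4 and 80.5 against 84.9 and 86.9, where Snap25 and Ret, a receptor tyrosine kinase, were called and the glial marker Sox10 changed by 0.02. Markers of the labelled epithelium were bright in both gates. Epcam read 9.98 and 9.85 in the negative arrays and 9.45 and 9.42 in the low arrays (-0.49, adjusted p = 0.23), and none of 8 epithelial markers was called. For 6 of them both low arrays lay below both negative arrays, where 28.5% of all genes did. Besides Epcam, their changes were -1.16 for Krt19, -0.83 for Vil1 (adjusted p = 0.065), -0.81 for Krt8, -0.79 for Cdx1 and -0.38 for Cdx2.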

How the data were processed

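RNA of sorted crypt cells was amplified with the Ovation Pico WTA System V2 and labelled with the Encore Biotin Module, per the labels' protocols. The deposited values are log2 intensities, made with Affymetrix Expression Console 1.3.0.187 and robust multi-array averaging (RMA) per the submitters' processing notes. RMA corrects probe background, normalizes quantiles, takes logs and summarises probes. In its values, changes of dim genes are compressed. The value table has 6 filled columns, and 12 columns without values belong to samples that were not analysed here. Of 35556 probe sets, 21789 had 1 gene symbol, 1621 several and 12146 none in the platform annotation. Symbols of 21698 were updated through gene IDs to the RefSeq table and 91 were kept. For 999 genes with more than 1 probe set, the one with the highest mean over the 6 arrays was used, which left 19938 genes. The number of arrays, 2 a gate, limits the precision.

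The fit used limma 3.58.1 in R 4.3.3 (lmFit and eBayes, 1 mean a gate, all 6 arrays), with Benjamini-Hochberg adjustment over all genes. It was tested on simulated data. Tables and plots used Python 3.11.15, pandas 2.3.3, NumPy 2.4.6 and Matplotlib 3.10.9. The alternatives were the prior (intensity trend, robust), the set of arrays, a background filter, the mean of probe sets, centred or quantile-normalized arrays, array weights, a replicate block, other thresholds, and leaving out each array.

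Genes were named by rule: the markers and Cfap126, the 15 largest increases and decreases among called genes, up to 4 called members of each list with the smallest p, and a set of landmark genes. Genes named outside that rule (such as Sct, Tac1, Ddc, Slc18a1, Syp, Scg3, Isl1, Insm1, Gast and Airn) were chosen after their values were seen. The markers, gene lists and rule were chosen with earlier results of these data known, so no list is independent evidence of its direction.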

Additional observations from a re-analysis of the deposited data

Results flagged for a closer look

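Among the 886 genes that were named or on a gene list, 16 were called against the negative gate in opposite directions in the reporter-positive gates, higher in the low gate and lower in the high gate. The share over all 19938 genes is not given. The 886 include the 25 genes of the T cell list, so which genes were listed bears on which are among the 16. The tested difference between the low and the high gate is given for each of the 16, on the log2 scale. Among leukocyte genes it was 5.02 for Nkg7, 4.31 for Cd3g, 4.23 for Itgae, 4.00 for Ptprc, 3.84 for Cd8a, 3.77 for Tyrobp, 3.74 for Fcer1g, 3.63 for Cd7, 3.43 for Cd69, 3.19 for Gzmb, 2.94 for Cd3d and 2.93 for Cd3e. Cd8a is a chain of the T cell co-receptor, Itgae the integrin of intraepithelial lymphocytes, and Gzmb a protease of killer cells. It was 4.18 for Rgs2, a regulator of G protein signalling, 3.99 for Id2, an inhibitor of basic helix-loop-helix factors, 3.84 for Ddc of serotonin synthesis and 2.37 for Ppat. Adjusted p-values of these 16 differences in limma's fit ranged from 0.00031 for Cd3g to 0.0040 for Cd3d.

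Rgs2 read 7.30 and 7.45 in the negative arrays, 9.70 and 9.99 in the low arrays and 6.01 and 5.33 in the high arrays. Its call against the negative gate had adjusted p-values of 0.059 and 0.051 without the first and second negative array. Id2 read 6.73 and 7.25, then 8.91 and 8.85, then 5.23 and 4.55, and it was not called against the negative gate with any low or negative array left out. For both, the 3 gates did not overlap. The summed level of the T cell list moved in the same order, and its part in the values of Rgs2, Id2, Ddc and Ppat was not tested. With 2 arrays a gate, single arrays could not be tested for standing apart.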

How the results depend on the processing

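Of the 1188 calls (681 higher, 507 lower), array weights gave 2150 (1105 and 1045), and an adjusted p below 0.01 gave 353 (256 and 97). Fitting only the low and negative arrays gave 851 lower. Leaving out 1 array in turn gave 187 to 1761 calls, 148 to 910 higher and 39 to 851 lower. The lowest counts came without a negative array, which leaves that gate 1 array that is assumed to vary like the others. A fit with the replicate number as a block gave 1298 calls (704 and 594), and 140 of the 144 called named genes were called in it. The deviations of same-numbered arrays correlated at 0.103, 0.103 and 0.0788 between gates, so the numbers were not taken to pair the samples. Of the 144 calls, between 132 and 144 were called under the other priors, probe set mean, centring, quantile normalization and array weights, and 57, 57, 101 and 80 without the first negative, second negative, first low and second low array. No called gene reversed. Genes that were not called changed sign. With centred arrays Vangl2 was at -0.049 and Wnt5a at -0.017. Leaving out 1 array in turn, Neurog3 ran from -0.13 to 1.18, Muc2 from -0.42 to 0.075, Dclk1 from -0.85 to 0.11 and Wnt5a from -0.046 to 0.17. The cause was not tested. Signal over background limits genes below 4.23, where 174 called increases had a negative gate not above background.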

Other observations

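Some gene groups outside the crypt lineages also held calls between the low and the negative gate, where 5.96% of all genes were called. The share called on the Hedgehog, BMP and Id list was near that of all genes. All 3 called members of 6 MHC class II genes, which present antigen, were lower. The same 3 were also called lower in the high than in the negative gate. Cd74 read 10.04 and 10.42 in the negative arrays and 8.88 and 9.03 in the low arrays (-1.28 ± 0.20, adjusted p = 0.017). H2-Eb1 and H2-Ab1 were lower by 2.60-fold and 2.36-fold in the low gate. None of these 3 was called with any low or negative array left out, and the shift ran opposite to that of the T cell genes. Of 19 EGF family genes, the feedback inhibitors Errfi1 (2.85-fold) and Dusp6 (2.81-fold) were called higher, and Hbegf, a ligand, and Erbb2, a receptor, were called lower by 2.53-fold and 2.50-fold. None of these 4 was called without the first or the second negative array. Of 19 Hedgehog, BMP and Id genes, only Id2 was called in limma's fit, though not with any low or negative array left out, and 3 others were past an unadjusted p of 0.05, all lower. Neither of the 2 erythroid genes measured was called, or past an unadjusted p of 0.05.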
